A study of Homo sapiens with 4 samples.

Results

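The genes of DNA replication and deoxynucleotide (dNTP) synthesis were followed in NCI-H929, an established human multiple myeloma line, after induction of a knockout of BCL7A, which encodes a subunit of the BAF chromatin remodellers (SWI/SNF family). The 49 genes were chosen by name and function, not by a rule on their values, although earlier results of these data were known: origin recognition and licensing factors, the replicative helicase and polymerases, the sliding clamp and its loader, single-strand binding and Okazaki fragment enzymes, 4 enzymes of dNTP synthesis and the E cyclins. All 49 were among the 56809 genes of the deposited table, and all 49 were among the 17885 genes that passed the filter on low counts. Poly(A) RNA was sequenced in 2 libraries from Cas9-expressing cells carrying a doxycycline-inducible BCL7A KO construct and in 2 control libraries. Both groups had been selected with puromycin for 3 days and then kept in doxycycline at 0.5 ug/ml for 24 h. The protocol gives the controls a control construct while their titles and genotype call them wild type, and the sources used here do not settle which holds. Whether the 2 libraries of each group stem from separate cultures, or the KO cells from 1 clone, is not labelled, so p-values reflect the spread between libraries alone, and that spread may be technical.

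Before S phase, the origin recognition complex (ORC) marks replication origins, and CDC6 and CDT1 load the MCM2 to MCM7 ring onto DNA, a step called licensing that geminin (GMNN) blocks once S phase has begun. CDC7 with its activator DBF4, and cyclin E with its kinase, then fire the origins, and CDC45 and the GINS complex join the ring to form the active CMG helicase. DNA polymerase alpha and primase lay down primers, polymerases delta and epsilon extend them on the clamp PCNA, and ribonucleotide reductase, thymidylate synthase and thymidine kinase supply dNTPs. Many of these genes are textbook targets of the E2F transcription factors, whose activity peaks at the entry into S phase.

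The KO libraries held 38671744 and 40799624 gene counts, against 17567202 and 20153596 in the control libraries. Depth was therefore about double in KO. Values after ± beside a log2 fold change are standard errors of edgeR's quasi-likelihood fit. BCL7A itself was 1.31 and 1.19 CPM in KO libraries, against 42.9 and 45.7 CPM in control libraries (log2 fold change -5.15 ± 0.11, adjusted p = 3.51e-25). NSD2 and FGFR3, the genes that the t(4;14) translocation of this line activates, were both expressed in all 4 libraries: NSD2 at 1186 and 1203 CPM in KO against 1032 and 1001 CPM in control, and FGFR3 at 213 and 219 CPM in KO against 75.7 and 80.2 CPM in control. The cell type label reads B lymphocyte, and all 10 plasma cell markers were expressed in every library, their summed level being 12737 and 12729 CPM in the KO libraries, against 7141 and 7183 CPM in the control libraries. Of 10 B cell markers, 8 were tested, of which 7 were lower and CD79B higher, with a summed level of 34.5 and 37.5 CPM in the KO libraries, against 5136 and 5189 CPM in the control libraries, most of it IGHD (0 and 0 CPM in KO against 4662 and 4703 CPM in control). CD79A was 0.114 and 0.217 CPM in KO against 82.9 and 86.2 CPM in control. CD74 was 1.17 and 1.65 CPM in KO against 263 and 269 CPM in control, and PAX5 0.285 and 0.298 CPM against 22.2 and 22.3 CPM. BLNK and CIITA were lower too. CD22 was at 0 in both KO libraries, and MS4A1 was 0.142 and 0 CPM in KO against 1.19 and 0.766 CPM in control. CD3D of T cells and MPO of myeloid cells were at 0 in all 4 libraries. The summed T and NK cell markers were nevertheless 14.3 and 14.3 CPM in the KO libraries, against 25.5 and 24.3 CPM in the control libraries, nearly all of it CD3E, which was lower in KO. The summed myeloid markers were 1.25 and 0.812 CPM in the KO libraries, against 1.19 and 1.53 CPM in the control libraries. Of these, CSF1R was detected in the KO libraries alone and ITGAM mostly in control. Of 4 erythroid markers, 2 were tested. HBA1 was lower, at 0 and 0 CPM in KO against 3.78 and 3.92 CPM in control, and HBB did not pass. Of 6 epithelial and stromal genes, 3 were lower, among them EPCAM (0 and 0 CPM in KO against 51.4 and 54.4 CPM in control), 2 were higher, KRT18 (6.26 and 6.71 CPM in KO against 2.69 and 1.17 CPM in control) and VIM (1027 and 1031 CPM in KO against 509 and 520.1 CPM in control), and CDH1 did not pass. With IGHD and EPCAM at 0 in KO and well expressed in control, these data do not show that the groups are the same culture apart from the knockout. The knockout and any other difference between the cultures cannot be told apart in any value below.

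Replication and dNTP genes did not move as 1 block. Of the 49, 30 were higher and 11 lower in the KO libraries, and 8 did not pass the threshold of an adjusted p of 0.05. Among the largest rises were TK1 and CDT1 at 4.42-fold and 4.38-fold, RRM2 at 3.85-fold and MCM10 at 3.65-fold, while ORC6, DBF4, POLD3, RFC4 and MCM7 fell. Over all tested genes, 36.4% were called higher and 39.8% lower, 76.2% in all. Genes that averaged 10 CPM or more (counts per 1000000, scaled with TMM factors), as 46 of the 49 did, are a closer background: 54.2% of these 9537 genes were higher and 31.7% lower, beside 61.2% and 22.4% of the 49. The share of members called higher was thus near that background. Their median log2 fold change was 0.34, against 0.19 for the expressed genes, whose lower and upper quartiles were -0.29 and 0.62, and -0.057 for all tested genes. Rises of at least 2-fold were seen in 10 of the 49 (20.4%), beside 9.42% of the expressed and 9.47% of all tested genes; whether that share differs beyond chance was not tested. Both KO libraries lay above both control libraries for 35 members and below them for 13, beside 41.3% and 46.1% of all tested genes and 57.6% and 34.7% of the expressed genes, and CDC7 was the 1 member whose groups overlapped. The libraries hold unsorted cells, so for every gene fewer cells of a type, or in a phase of the cell cycle, and less RNA per cell cannot be told apart.

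**Figure D1:**
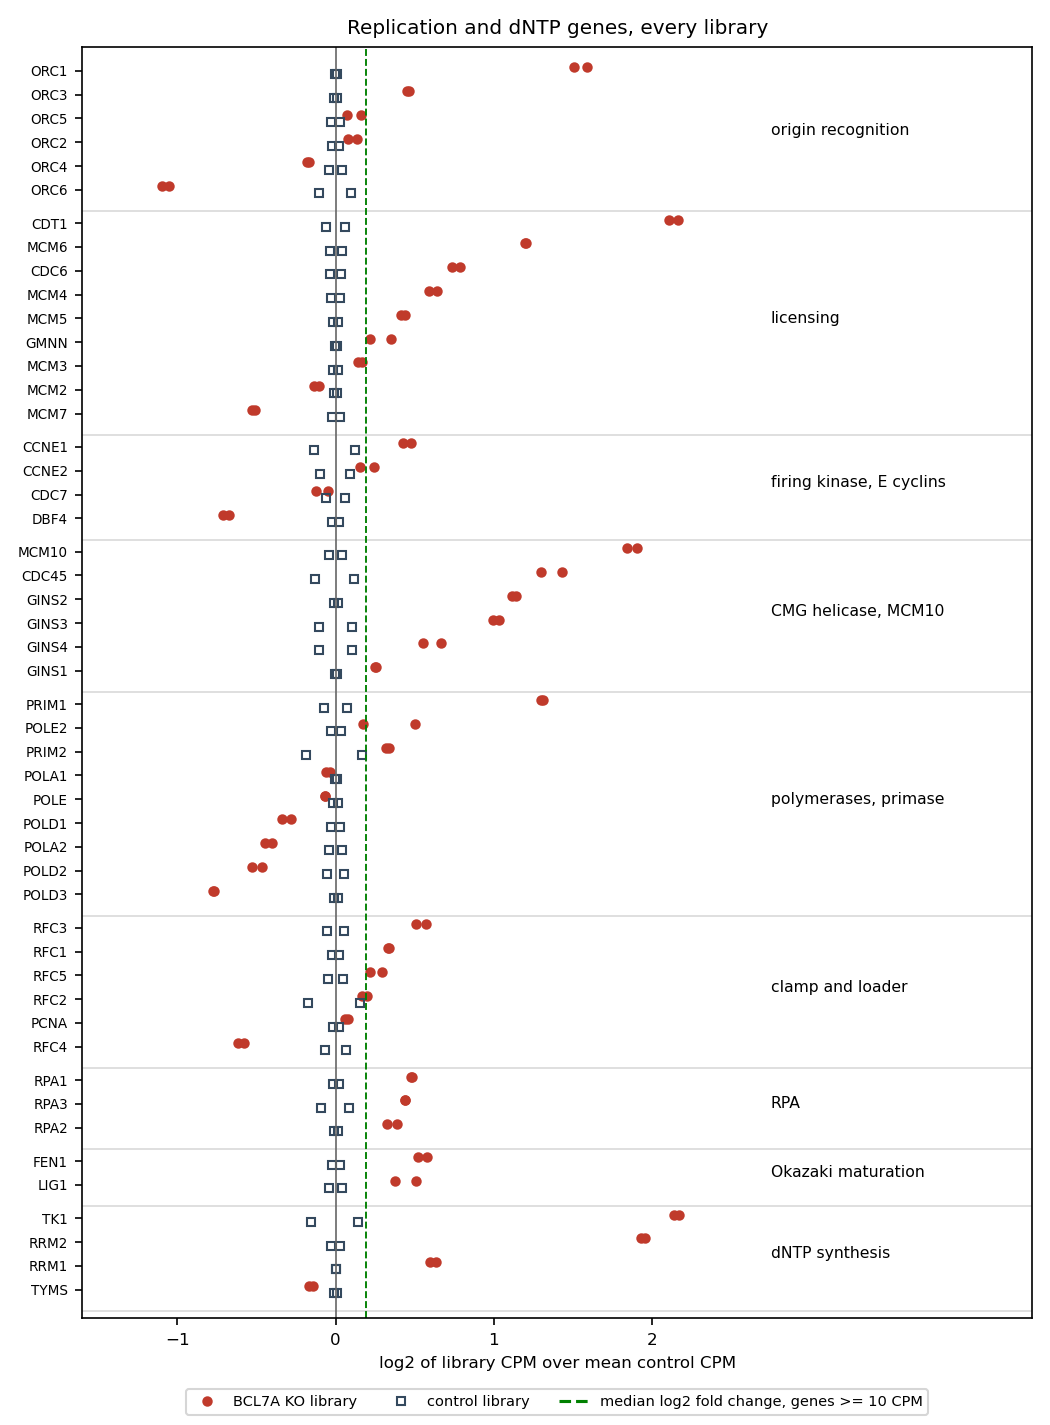
Each row is a gene, grouped by role; points give log2 of the CPM in each of 2 BCL7A KO (filled circles) and 2 control (open squares) libraries over the mean control CPM. TK1, CDT1, RRM2 and MCM10 stand farthest to the right and ORC6 farthest to the left, and the dashed line marks the median log2 fold change of 0.19 of genes with at least 10 CPM.

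The direction of small changes depended on the scaling of the libraries. TMM, which was used throughout, gave factors of 0.909 and 0.906 to the KO libraries and 1.10 to both control libraries. Scaling by total counts alone, an alternative chosen after the data were seen, moved the log2 fold change of the median gene by -0.28, and upper-quartile factors moved it by -0.13. With total counts, 20 members (40.8%) were higher and 18 (36.7%) lower, beside 37.4% and 47.8% of the expressed genes. Of the 30 members called higher, 20 were called higher in each of 14 refits with other scalings, filters, tools or with a library left out; those not called in every refit were GMNN, MCM3, CCNE1, GINS1, PRIM2, POLE2, RFC1, RFC5, RPA2 and RPA3. Of the 11 called lower, 8 were lower in each refit, the exceptions being ORC4, MCM2 and TYMS. The matching share over all or expressed genes is not given here. A call that held in every refit, here or below, is therefore not shown to be particular to the members. The text marks these genes as sensitive to the refit in the paragraph on their role, and not always where it names them again.

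**Figure D2:**
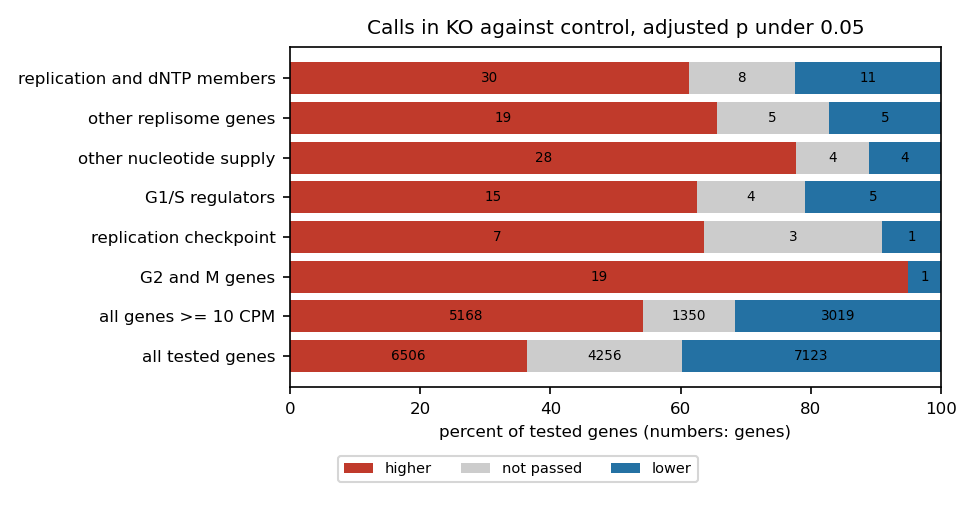
Bars give the percent of tested genes that were higher, not past the threshold or lower in the KO against the control libraries (edgeR, adjusted p of 0.05), with the number of genes inside each segment. The members (30 higher, 8 not passed, 11 lower) lie near the genes with at least 10 CPM, whereas 19 of 20 genes of G2 and M phase were higher.

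The promoters of the members were examined for letters that E2F proteins are known to bind, since the members were not chosen by sequence. RefSeq start sites (GRCh38.p14) were matched by symbol for 42 of the 49 genes, and the 250 bases before each start were searched on both strands for TTTCCCGC and TTTGGCGC, forms of the E2F site that can share end letters but cannot start at the same base. Either form was present in 12 of 42 member promoters (28.6%), against 1.96% of 27305 promoters in all and 3.47% of the 7525 promoters of genes with at least 10 CPM. The site was found in 7 of the 25 matched members that were higher, in 2 of the 10 that were lower and in 3 of the 7 that did not pass. The median log2 fold change was 0.30 in the 12 members with the site and 0.30 in the 30 without. A CCAAT box (CCAAT, either strand) was present in 22 of 42 member promoters (52.4%) and in 36.1% of those of expressed genes. The CHR letters TTTGAA, known from genes of G2 and M phase, were present only in RRM1 of the 42, and in 8.07% of the promoters of expressed genes. A match describes letters in this window and is no evidence that a factor binds there.

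The sites are shown for genes that moved in different directions, 5′ to 3′ along the gene's strand and with the E2F letters, on either strand, in capitals. The first pair gives the 250 bases before the start of MCM6, which rose, and of POLA1, which did not pass the threshold; the others give 30 bases around the site in CDT1 and GINS2, which rose, in MCM7 and TYMS, which fell (TYMS not in every refit), and in PCNA and POLE, which did not pass.
MCM6 (chr2:135876444-135876693, minus strand): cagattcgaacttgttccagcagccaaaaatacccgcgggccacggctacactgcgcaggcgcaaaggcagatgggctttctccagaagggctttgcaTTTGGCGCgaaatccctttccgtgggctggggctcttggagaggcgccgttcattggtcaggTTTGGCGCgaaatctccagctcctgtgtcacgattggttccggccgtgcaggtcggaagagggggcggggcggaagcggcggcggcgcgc
POLA1 (chrX:24693668-24693917, plus strand): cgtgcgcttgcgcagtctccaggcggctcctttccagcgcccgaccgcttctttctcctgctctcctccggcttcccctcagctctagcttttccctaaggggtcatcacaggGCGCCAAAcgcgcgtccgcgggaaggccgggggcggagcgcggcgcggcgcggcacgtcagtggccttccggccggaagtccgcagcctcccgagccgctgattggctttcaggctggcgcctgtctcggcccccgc
CDT1 (chr16:88803743-88803772, plus strand): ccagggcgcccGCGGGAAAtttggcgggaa
GINS2 (chr16:85688967-85688996, minus strand): ctctcgccgtgGCGGGAAAacggcggccgc
MCM7 (chr7:100101566-100101595, minus strand): cagctcggaccGCGGGAAAcccggcgcctg
TYMS (chr18:657603-657632, plus strand): gcgggacggccGCGGGAAAaggcgcgcgga
PCNA (chr20:5126663-5126692, minus strand): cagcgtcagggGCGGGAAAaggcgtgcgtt
POLE (chr12:132687342-132687371, minus strand): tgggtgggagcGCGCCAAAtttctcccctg
The same 8 letters, GCGGGAAA, thus stand before RefSeq starts of genes that were higher (CDT1, GINS2), lower (MCM7, TYMS) and not past the threshold (PCNA). The MCM6 and POLA1 windows hold no annotated exon and the PCNA site lies in an exon-free stretch, unlike those of GINS2, TYMS and POLE. The windows of CDT1 and MCM7 have no exon-free stretch, and exons of AP4M1 overlap that of MCM7.

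The origin recognition complex split. ORC1, the subunit that is made anew for each round of licensing, rose 2.92-fold, whereas ORC6, the smallest subunit, fell. ORC1 (GRCh38, GENCODE release 29: chromosome 1, 52372829 to 52404459, minus strand) was 28.9 and 30.7 CPM in KO libraries, against 10.1 and 10.2 CPM in control libraries (log2 fold change 1.55 ± 0.081, adjusted p = 3.07e-16). ORC6 (chromosome 16, 46689643 to 46698394, plus strand) was 24.1 and 24.9 CPM in KO libraries, against 48.0 and 55.2 CPM in control libraries (log2 fold change -1.08 ± 0.063, adjusted p = 2.76e-14). For both genes the groups stood far apart compared with the gap between their libraries. Of the core subunits, ORC3 was also higher, at 41.7 and 42.1 CPM in KO against 30.4 and 30.7 CPM in control (log2 fold change 0.46). ORC4 was lower at 24.1 and 24.3 CPM in KO against 28.1 and 26.6 CPM in control (log2 fold change -0.17, adjusted p = 0.0196). The ORC4 difference missed the threshold in DESeq2 (adjusted p = 0.165) and in edgeR with no filter on low counts (log2 fold change -0.091, adjusted p = 0.308). It was also missed in edgeR without KO replicate 1, KO replicate 2 or control replicate 1 (log2 fold changes -0.16, -0.17 and -0.14). Both subunits belong to the body of the complex that holds DNA. ORC2 was 46.2 and 48.2 CPM in KO against 44.6 and 43.1 CPM in control (adjusted p = 0.0596) and ORC5 32.0 and 34.1 CPM in KO against 29.9 and 31.1 CPM in control (adjusted p = 0.0881), so neither passed. ORC2 was called higher without control replicate 1 (adjusted p = 0.0463), and both were called higher with no filter on low counts, whereas with total counts both were called lower (log2 fold changes -0.17 and -0.16). The summed level of the 6 ORC genes was 197 and 204 CPM in the KO libraries, against 191 and 197 CPM in the control libraries.

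Licensing factors were mostly higher, led by CDT1, which brings the MCM ring to the origin. CDT1 (chromosome 16, 88803213 to 88809258, plus strand) was 90.9 and 87.6 CPM in KO libraries, against 19.5 and 21.2 CPM in control libraries (log2 fold change 2.13 ± 0.055, adjusted p = 2.03e-23). Its partner CDC6 was 81.9 and 84.6 CPM in KO libraries, against 47.9 and 50.3 CPM in control libraries (log2 fold change 0.76 ± 0.045, adjusted p = 5.41e-15). The CDT1 inhibitor GMNN (geminin) was 31.2 and 28.5 CPM in KO libraries, against 24.4 and 24.6 CPM in control libraries (log2 fold change 0.28, adjusted p = 4.17e-04). Geminin therefore differed far less than the loader it binds, and its log2 fold change was 0.0036 with total counts, where it was not called.

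The ring subunits MCM2 to MCM7, which act in equal numbers in the assembled helicase, did not share a direction. MCM6 (chromosome 2, 135839626 to 135876426, minus strand) rose most, with 235 and 234 CPM in KO libraries, against 105 and 99.4 CPM in control libraries (log2 fold change 1.20 ± 0.033, adjusted p = 1.32e-22). MCM4 and MCM5 were higher as well, MCM4 at 204 ± 4.89 CPM in KO and 133 ± 3.66 CPM in control and MCM5 at 128 ± 1.75 CPM in KO and 95.7 ± 1.65 CPM in control (SD, n = 2 each; log2 fold changes 0.61 and 0.43). MCM3 was 152 and 149 CPM in KO against 137 and 134 CPM in control (log2 fold change 0.15), a call that was lost with upper-quartile factors and reversed with total counts (-0.13). The remaining pair of subunits was lower. MCM7 (chromosome 7, 100092728 to 100101940, minus strand) was 221 and 218 CPM in KO libraries, against 308 and 319 CPM in control libraries (log2 fold change -0.52 ± 0.029, adjusted p = 1.10e-15), and MCM2 was 121 and 118 CPM in KO against 131 and 129 CPM in control (log2 fold change -0.12, adjusted p = 0.00200, not called with no filter, or without KO replicate 2, where adjusted p = 0.0997). The span between MCM6 and MCM7 was 1.72 on the log2 scale, or 3.29-fold, and does not depend on the scaling. Per kb of the longest annotated coding transcript, MCM7 made up the following share of the summed level of the 6 genes: 23.9% and 23.7% in the KO libraries, against 37.7% and 38.8% in the control libraries. By the same measure MCM6 made up 21.0% and 21.0% in the KO libraries, against 10.6% and 9.98% in the control libraries. MCM7 was the most abundant of the 6 in all 4 libraries on this scale, and MCM6 was the second highest in both KO libraries, against the second lowest in control replicate 1 and the lowest in control replicate 2. Some MCM7 exons are shared with AP4M1 on the opposite strand (392 bases), which had 328 and 350 counts in KO and 217 and 283 counts in control, few beside 7755 and 8039 counts in KO and 5960 and 7086 counts in control for MCM7.

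**Figure D3:**
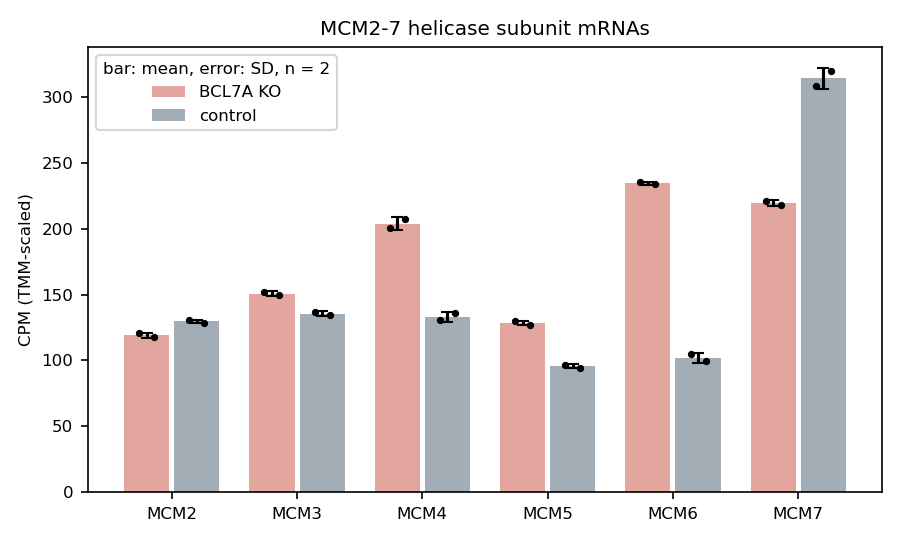
Bars give the mean CPM of MCM2 to MCM7 in BCL7A KO (left of each pair) and control libraries (right), with the SD as error bar and the 2 libraries as dots. MCM6 was 235 and 234 CPM in KO against 105 and 99.4 CPM in control, and MCM7 was 221 and 218 CPM against 308 and 319 CPM.

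Among the genes that fire origins, DBF4 fell while its kinase CDC7 did not pass the threshold. DBF4, the regulatory subunit that activates CDC7, was 43.2 and 44.3 CPM in KO libraries, against 71.7 and 69.5 CPM in control libraries (log2 fold change -0.69 ± 0.046, adjusted p = 1.01e-13). CDC7 was 11.3 and 11.9 CPM in KO libraries, against 12.8 and 11.8 CPM in control libraries, with overlapping groups (log2 fold change -0.082, adjusted p = 0.474); with total counts it was called lower (-0.36). DBF4 shares 142 exonic bases with SLC25A40 on the opposite strand, which had 551 and 562 counts in KO and 1139 and 1422 counts in control and so had fewer counts in the deeper KO libraries. The E cyclins, which activate CDK2 at the entry into S phase, were at low levels. CCNE1 was 16.0 and 15.4 CPM in KO against 12.5 and 10.5 CPM in control (log2 fold change 0.46, adjusted p = 1.88e-04; 0.18 and not called with total counts). CCNE2 was 7.92 and 7.44 CPM in KO against 7.14 and 6.26 CPM in control (log2 fold change 0.20, adjusted p = 0.184), and it shares 1629 exonic bases with INTS8 on the opposite strand, so its counts are uncertain where strand was not used.

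The partners that turn the loaded ring into the active helicase were higher without exception, 6 of 6, beside 54.2% of the expressed genes. Their median log2 fold change was 1.07. The call for GINS1 was lost with DESeq2, with thinned KO libraries and with upper-quartile factors, and its sign turned with total counts. MCM10 (chromosome 10, 13161554 to 13211104, plus strand), which helps to activate the assembled helicase, was 47.7 and 45.6 CPM in KO libraries, against 12.4 and 13.1 CPM in control libraries (log2 fold change 1.87 ± 0.069, adjusted p = 8.96e-20). CDC45, the helicase subunit that joins the ring when an origin fires, was 29.3 and 26.7 CPM in KO libraries, against 11.8 and 9.96 CPM in control libraries (log2 fold change 1.37 ± 0.087, adjusted p = 4.83e-14). In both genes each KO library was more than double each control library. The GINS subunits rose unequally. GINS2 was 24.8 and 25.3 CPM in KO against 11.4 and 11.6 CPM in control (log2 fold change 1.12), GINS3 33.4 and 32.5 CPM in KO against 17.5 and 15.1 CPM in control (1.02) and GINS4 24.5 and 26.6 CPM in KO against 15.5 and 17.9 CPM in control (0.61). GINS1 was 21.0 and 20.9 CPM in KO libraries, against 17.7 and 17.5 CPM in control libraries (log2 fold change 0.25 ± 0.076, adjusted p = 0.00407), the smallest difference of the 6. The GINS subunits form a single complex, and the span between GINS1 and GINS2 was 1.83-fold.

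Of the replicative polymerase genes, 3 of 9 were higher, 4 lower and 2 did not pass. Among the expressed genes 54.2% were higher and 31.7% lower. The median log2 fold change of the 9 was -0.064. The 3 subunits of polymerase delta among the members were lower; this enzyme extends the lagging strand. POLD3, an accessory subunit, was 17.9 and 17.8 CPM in KO libraries, against 30.7 and 30.2 CPM in control libraries (log2 fold change -0.77 ± 0.069, adjusted p = 4.81e-11). POLD2 was 83.9 and 80.5 CPM in KO against 112 and 120.2 CPM in control (log2 fold change -0.50), and the catalytic subunit POLD1 was 26.4 and 27.4 CPM in KO against 32.6 and 34.0 CPM in control (-0.31). These 3 were lower in all 14 refits. The catalytic subunit of polymerase epsilon, POLE, was 81.2 and 81.2 CPM in KO against 85.8 and 84.0 CPM in control (log2 fold change -0.064, adjusted p = 0.135), and was called lower with upper-quartile factors, total counts (-0.34), the stricter filter and thinned KO libraries. Its partner POLE2 was 6.55 and 8.26 CPM in KO against 5.69 and 5.95 CPM in control at low counts (log2 fold change 0.35, adjusted p = 0.0347), a call lost in 9 of 14 refits, among them those without KO replicate 2 (adjusted p = 0.417), control replicate 1 (0.0971) and control replicate 2 (0.0615). In the polymerase alpha and primase complex, which makes the primers, the subunits parted. The primase catalytic subunit PRIM1 was 45.3 and 45.6 CPM in KO libraries, against 19.4 and 17.5 CPM in control libraries (log2 fold change 1.31 ± 0.064, adjusted p = 7.95e-17). The large primase subunit PRIM2 was 17.5 and 17.2 CPM in KO against 12.2 and 15.5 CPM in control (log2 fold change 0.32, adjusted p = 0.00486; not called with DESeq2, upper-quartile factors or total counts, or without control replicate 1, where it was 0.16 with adjusted p = 0.129). POLA2, the B subunit of polymerase alpha, was 34.8 and 33.8 CPM in KO libraries, against 47.3 and 44.7 CPM in control libraries (log2 fold change -0.42 ± 0.055, adjusted p = 7.44e-08). The catalytic POLA1 was 44.5 and 45.2 CPM in KO against 46.6 and 46.1 CPM in control (log2 fold change -0.047, adjusted p = 0.402), and was called lower with upper-quartile factors and total counts (-0.33). PRIM1 shares 362 exonic bases with the annotated gene AC117378.1 on the same strand, which had 275 and 305 counts in KO and 121 and 123 counts in control, a difference in the same direction as 1590 and 1684 counts in KO and 374 and 388 counts in control for PRIM1. It also shares 33 bases with the abundant gene NACA. POLA2 shares 2012 exonic bases with AP000944.2 on the same strand. That gene had 152 and 143 counts in KO and 44 and 80 counts in control. POLA2 itself had 1223 and 1247 counts in KO and 914 and 993 counts in control.

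The clamp was nearly level and its loader uneven. PCNA, the ring that tethers the polymerases, was 88.3 and 87.0 CPM in KO libraries, against 84.6 and 82.3 CPM in control libraries (log2 fold change 0.071, adjusted p = 0.0983), and it was called lower with total counts (-0.21) but higher with no filter (0.15). RFC3, a small subunit of the clamp loader, was 38.0 and 39.8 CPM in KO libraries, against 25.8 and 27.7 CPM in control libraries (log2 fold change 0.54 ± 0.061, adjusted p = 6.40e-09). RFC4, another small subunit, was 31.6 and 30.7 CPM in KO libraries, against 49.2 and 44.9 CPM in control libraries (log2 fold change -0.59 ± 0.057, adjusted p = 2.53e-10). The pair thus differed by 2.19-fold in opposite directions. RFC1, the large subunit, was 111 and 110.3 CPM in KO against 88.9 and 86.4 CPM in control (log2 fold change 0.34; 0.055 and not called with total counts). RFC5 was 44.6 and 42.3 CPM in KO against 37.6 and 35.3 CPM in control (0.26; -0.024 and not called with total counts, nor called with upper-quartile factors). RFC2 was 25.9 and 26.4 CPM in KO against 20.4 and 25.7 CPM in control, where the control libraries were themselves apart (adjusted p = 0.0578). It was called higher without control replicate 2 (log2 fold change 0.34, adjusted p = 4.65e-04) and with no filter.

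Single-strand binding and fragment joining genes rose modestly, 5 of 5, beside 54.2% of the expressed genes that were higher. Their log2 fold changes all lay below 0.62, the upper quartile of the expressed genes. The 3 subunits of replication protein A, which coats unwound DNA, had log2 fold changes of 0.48 (RPA1), 0.35 (RPA2) and 0.43 (RPA3), a span of 1.09-fold, the narrowest of the complexes examined. RPA1, the DNA-binding subunit, was 160.2 and 161 CPM in KO libraries, against 114 and 117 CPM in control libraries (log2 fold change 0.48 ± 0.033, adjusted p = 1.97e-13). RPA2 was 39.0 and 37.4 CPM in KO against 30.1 and 29.6 CPM in control. RPA3 was 10.7 and 10.7 CPM in KO against 7.40 and 8.38 CPM in control, and the calls for RPA2 and RPA3 were lost with total counts. FEN1, the flap nuclease that trims Okazaki fragments, was 104 and 108 CPM in KO libraries, against 73.5 and 70.9 CPM in control libraries (log2 fold change 0.55 ± 0.040, adjusted p = 4.83e-13). LIG1, the ligase that joins them, was 49.4 and 45.1 CPM in KO against 35.8 and 33.8 CPM in control (log2 fold change 0.44). For FEN1, LIG1 and RPA1 the groups did not overlap and the call held in all 14 refits.

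The dNTP genes held some of the largest rises and a fall. TK1, the S-phase thymidine kinase of the salvage pathway (chromosome 17, 78174075 to 78187233, minus strand), was 79.1 and 77.3 CPM in KO libraries, against 15.8 and 19.4 CPM in control libraries (log2 fold change 2.14 ± 0.064, adjusted p = 3.11e-20). RRM2, the small subunit of ribonucleotide reductase (chromosome 2, 10120698 to 10131419, plus strand), was 299 and 305 CPM in KO libraries, against 80.0 and 77.0 CPM in control libraries (log2 fold change 1.94 ± 0.034, adjusted p = 2.84e-27). RRM1, its large subunit, was 124 and 121 CPM in KO libraries, against 80.2 and 80.2 CPM in control libraries (log2 fold change 0.62 ± 0.037, adjusted p = 7.06e-15). So both reductase subunits rose, the small one by more. TYMS, which makes thymidylate from deoxyuridylate, was 78.8 and 80.2 CPM in KO libraries, against 88.1 and 89.3 CPM in control libraries (log2 fold change -0.16 ± 0.039, adjusted p = 6.22e-04). TYMS was not called with no filter on low counts (log2 fold change -0.074). It shares 967 exonic bases with ENOSF1 on the opposite strand, which had 1727 and 1800 counts in KO and 352 and 414 counts in control, and the strand setting of the counting is not given in the sources used here. RRM2 shares 1077 bases with AC007240.1 on the same strand, which had 31 and 45 counts in KO and 87 and 74 counts in control, few beside 10501 and 11265 counts in KO and 1547 and 1710 counts in control for RRM2. Named pseudogenes of the members held at most 7 counts in a library.

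Ratios of counts between members within a library do not depend on how libraries are scaled. The pairs below were chosen after their values were seen, and with 2 libraries against 2 an exact two-sided permutation test cannot give a p below 0.333, so they are described without a test. TK1 over TYMS was 1.00 and 0.964 in the KO libraries, against 0.179 and 0.217 in the control libraries, 4.97 times as high by the means. ORC1 over ORC6 was 1.20 and 1.23 in the KO libraries, against 0.211 and 0.185 in the control libraries. The licensing factor CDT1 over its inhibitor GMNN was 2.91 and 3.07 in the KO libraries, against 0.798 and 0.861 in the control libraries. In each of these pairs the groups were separated by several times the gap between libraries of a group. MCM10 over MCM2 was 0.396 and 0.388 in the KO libraries, against 0.0951 and 0.102 in the control libraries. PRIM1 over POLA2 was 1.30 and 1.35 in the KO libraries, against 0.409 and 0.391 in the control libraries. MCM6 over MCM7 was 1.07 and 1.07 in the KO libraries, against 0.340 and 0.311 in the control libraries. Each pair works in the same machine, and the proportion of its mRNAs differed between the groups by more than between libraries of a group. RRM2 over RRM1 was 2.40 and 2.51 in the KO libraries, against 0.998 and 0.961 in the control libraries. RFC3 over RFC4 was 1.21 and 1.29 in the KO libraries, against 0.524 and 0.617 in the control libraries. Whether a ratio is higher or lower depends on which gene of the pair is written first. DBF4 over CDC7 was lower, with 3.83 and 3.72 in the KO libraries, against 5.61 and 5.89 in the control libraries. RFC4 over RFC1 was lower too, at 0.285 and 0.279 in the KO libraries, against 0.554 and 0.520 in the control libraries.

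**Figure D4:**
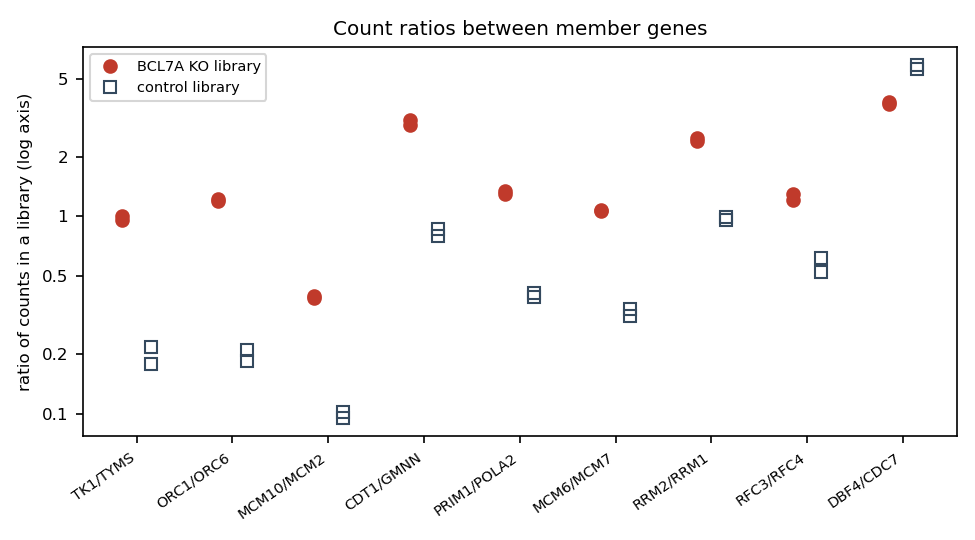
Each column gives the ratio of the counts of a pair of member genes in each BCL7A KO (circles, left) and control (squares, right) library, on a log axis. TK1/TYMS was 1.00 and 0.964 in KO against 0.179 and 0.217 in control. As written, only DBF4/CDC7 of the pairs plotted was lower in KO. The order of the genes in a pair sets that direction.

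Log2 fold changes differed between chromosomes, and the members were set beside the protein-coding genes of their chromosome with at least 10 CPM. Chromosome 7, with a median of -0.19 over 416 genes, carries 6 members, whose median was -0.19: DBF4, MCM7 and POLD2 were lower, RPA3 was higher (not with total counts), and ORC5 and RFC2 did not pass. Chromosome 16, with a median of 0.21, carries members at both ends of the range, ORC6 at -1.08 and CDT1 at 2.13. Chromosome 11, with a median of 0.078, held POLD3 and POLA2, which fell, and RRM1 and FEN1, which rose. Of the 49 members, 30 lay above the median of their chromosome and 19 at or below it, and the median difference was 0.18. Gene dosage was not measured, and its part in these values was not tested.

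**Figure D5:**
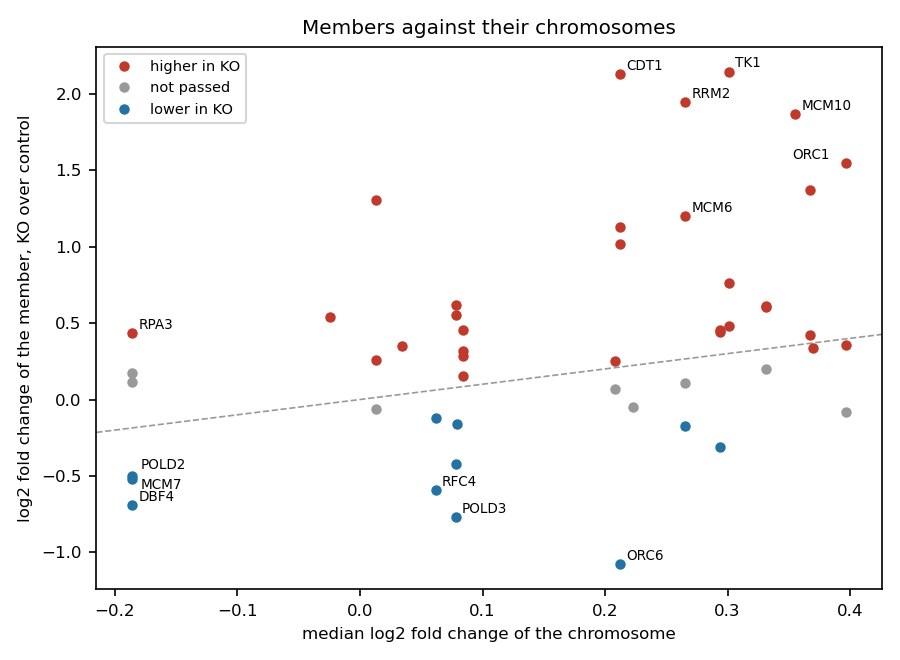
Each point is a member, with the median log2 fold change (KO over control) of protein-coding genes with at least 10 CPM on its chromosome on the x axis and its own log2 fold change on the y axis; the dashed line marks equal values. The 6 members of chromosome 7 stand at the left, at a chromosome median of -0.19, and ORC6 and CDT1 share the median of chromosome 16.

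Other genes of the pathway were taken from lists chosen by function. The background for each list, here and in the paragraphs that follow, is the expressed genes, of which 54.2% were higher and 31.7% lower. With total counts that background shifted as well, to 37.4% higher and 47.8% lower. Its median log2 fold change was then -0.087, against 0.19 with TMM. Of 29 further replisome genes, 19 were higher, 5 lower and 5 did not pass (median log2 fold change 0.37; 15 higher and 8 lower with total counts). TOP1, the topoisomerase that relaxes DNA ahead of forks, was 601 and 613 CPM in KO against 245 and 241 CPM in control. CLSPN, the fork protein claspin, was 40.8 and 40.8 CPM in KO against 14.5 and 11.8 CPM in control. ASF1A, a histone chaperone, was 110.1 and 115 CPM in KO against 53.3 and 55.2 CPM in control. POLE3, a small subunit of polymerase epsilon, was 169.6 and 172 CPM in KO against 103 and 97.8 CPM in control. In contrast to these, RECQL4, a helicase that takes part in initiation, was 18.3 and 17.3 CPM in KO against 39.9 and 41.5 CPM in control, and TOPBP1, a scaffold for origin firing and checkpoint signalling, 120.0 and 117 CPM in KO against 154 and 150.1 CPM in control.

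Genes of nucleotide supply were mostly higher, 28 of 36, with 4 lower and 4 not passed (median 0.51; 23 higher and 9 lower with total counts). MTHFD2, a mitochondrial enzyme of folate metabolism, was 562 and 553 CPM in KO against 249.9 and 258 CPM in control. PAICS, of purine synthesis, was 371 and 369 CPM in KO against 176 and 173 CPM in control. SAMHD1, which degrades dNTPs, rose too, at 352 and 354 CPM in KO against 161 and 153 CPM in control. The exceptions included CTPS2, a CTP synthase, which was nearly absent from the KO libraries at 0.541 and 0.677 CPM in KO against 23.5 and 20.1 CPM in control, and GMPS, of GMP synthesis, at 43.0 and 42.9 CPM in KO against 76.9 and 71.2 CPM in control. CTPS1, the other CTP synthase gene, was higher at 122 and 119 CPM in KO against 65.6 and 63.7 CPM in control; it was looked up after the values of CTPS2 were seen.

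Regulators of the entry into S phase moved in both directions. Of 24, 15 were higher, 5 lower and 4 did not pass (median 0.61; 14 higher and 8 lower with total counts). E2F2, an activator E2F, was 155 and 148 CPM in KO against 45.2 and 50.8 CPM in control. In contrast, the dimer partners that most E2F proteins need for binding DNA were both lower. TFDP1 was 82.0 and 81.6 CPM in KO against 169 and 164 CPM in control. TFDP2 was 23.8 and 24.1 CPM in KO against 157 and 173 CPM in control. CDKN1A, which encodes the kinase inhibitor p21, was higher at 346 and 346 CPM in KO against 149 and 141 CPM in control. Of 11 checkpoint genes, 7 were higher, 1 lower and 3 did not pass (median 0.21, which was -0.068 with total counts, where 4 were higher and 4 lower). The replication stress kinase ATR was 153 and 159 CPM in KO against 86.5 and 87.7 CPM in control. CHEK1, the kinase it activates, was 99.3 and 101 CPM in KO against 64.2 and 67.3 CPM in control. RAD17, which loads the checkpoint clamp, was 91.4 and 92.1 CPM in KO against 56.1 and 52.7 CPM in control. WEE1, which restrains CDK1, was the 1 that fell, at 53.8 and 56.1 CPM in KO against 73.6 and 72.7 CPM in control. Of the genes of G2 and M phase, 19 of 20 were higher (18 with total counts), with a median of 1.21; those with the smallest p were CCNB1 (258 and 265 CPM in KO against 35.4 and 34.4 CPM in control), CDC20 (126 and 130.1 CPM in KO against 18.7 and 21.0 CPM in control), TPX2 (log2 fold change 1.50) and AURKA (2.10), and FOXM1 was lower (-0.78). The difference between that median and the 0.34 of the replication genes was not tested.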

How the data were processed

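Each gene's estimated count, a whole number as deposited by the authors, came from Salmon 0.12; the submitters' processing notes name this tool and the GRCh38 build, but no annotation, index or strand setting was found in the sources used here. The counts were used as they stood. The 92 rows of ERCC spike-in sequences (at most 2 counts in a library) were left out. All 56809 gene names are in GENCODE release 29, the source of coordinates (GRCh38) and exon overlaps.

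Genes passing filterByExpr were compared in edgeR 4.0.16 (TMM, estimateDisp, glmQLFit with robust=TRUE, glmQLFTest, no covariates; R 4.3.3), with Benjamini-Hochberg adjustment over all 17885 tested genes and a threshold of 0.05; every adjusted p in the text is from this fit unless its sentence names another tool, setting or a library left out, where it is from that refit. Log2 fold changes are KO over control, with SE as their size over the square root of F. CPM are counts per 1000000 with TMM-scaled library sizes; member counts ranged from 110 to 11265 a library. Replicates differed by more than Poisson error (chi-square over its degrees of freedom 1.77 in KO and 2.38 in control) and were kept apart.

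The members and lists were chosen with earlier results of these data known. Named genes are all 49 members, BCL7A and, per list, up to 4 by smallest p and 2 moving against most of the list; 1 of these is not reported here. Alternatives were RLE, upper-quartile and no factors, other filters, DESeq2 1.42.0, limma-voom (limma 3.58.1), a replicate block, thinned KO libraries, a threshold of 0.01, libraries left out and 2 centrings. On simulated counts for this comparison (17553 genes tested), genes with a set change were called in 20 of 50 cases at 1.2-fold, 41 of 50 at 1.5-fold, 39 of 50 at 2-fold and 50 of 50 at 4-fold. Only these genes changed in the simulation, up and down alike and at a fixed dispersion. In the data, 76.2% of tested genes were called. The simulated rates therefore do not cover the choice of scaling and are not rates for the members.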

Additional observations from a re-analysis of the deposited data

How the results depend on the processing

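Counts of higher and lower members stayed within 1.5 times of 30 and 11 under RLE factors, upper-quartile factors, both other filters, DESeq2, limma-voom, no robust shrinkage, a threshold of 0.01 and thinned KO libraries, with the exception of scaling by total counts, which gave 18 lower. Leaving out each library in turn gave 29 to 30 higher members, 9 to 11 lower members and a median of 0.31 to 0.35; over all genes it gave 6004 to 6444 higher and 6359 to 6658 lower. The members' median moved to 0.20 with upper-quartile factors, 0.42 with no filter, 0.28 with the stricter filter and 0.055 with total counts. It was 0.18 after subtracting each chromosome's median and 0.14 after subtracting that of the expressed genes. Log2 fold changes turned sign with upper-quartile factors (ORC2 -0.026, ORC5 -0.018, PCNA -0.063), with no filter (CDC7 0.0018, POLA1 0.036, POLE 0.019), with total counts (ORC2 -0.17, ORC5 -0.16, MCM3 -0.13, CCNE2 -0.081, GINS1 -0.028, PCNA -0.21, RFC2 -0.11, RFC5 -0.024), after subtracting the chromosome median (ORC2 -0.16, CCNE2 -0.13, PCNA -0.14, RFC1 -0.034, RPA2 -0.042) and after subtracting the median of the expressed genes (ORC2 -0.085, ORC5 -0.077, MCM3 -0.040, PCNA -0.12, RFC2 -0.020). By construction, another scaling or subtracting 1 median for all genes moves the members nearly alike, whereas the chromosome medians move them by different amounts; the cause was otherwise not tested. Over all genes, total counts gave 4493 higher and 9346 lower against 6506 and 7123. Same-numbered libraries of the groups did not deviate together (r = -0.0116 across 14289 genes). That value cannot show whether they were handled as pairs, because a weak shared effect could go unseen. The replicate block gave 30 higher and 11 lower members and a median of 0.33. Calls for POLE2, GINS1 and PRIM2 were lost under several alternatives, and whether depth had a part in that was not tested.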
